A study of Mus musculus with 40 samples.

Results

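The Cyp4a genes encode cytochrome P450 enzymes that place a hydroxyl group on the last, or omega, carbon of fatty acids. The 6 members described here were chosen by symbol: Cyp4a10 (ENSMUSG00000066072), Cyp4a14 (ENSMUSG00000028715), Cyp4a12a (ENSMUSG00000066071), Cyp4a12b (ENSMUSG00000078597), Cyp4a31 (ENSMUSG00000028712) and Cyp4a32 (ENSMUSG00000063929). They are 6 of the 40594 genes listed in both tables of read counts. Omega-hydroxylated fatty acids are oxidised to dicarboxylic acids, which peroxisomes then shorten, so this route takes up fatty acids that mitochondria do not burn. In mouse liver Cyp4a10 and Cyp4a14 are well-known target genes of PPARα, the nuclear receptor that senses fatty acids, and the related receptor PPARγ, to which pioglitazone (Pio) binds, recognises similar DNA elements. Cyp4a12a is expressed mainly in males and converts arachidonic acid to the signalling lipid 20-HETE.

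Liver RNA of 40 male mice aged 5 months was sequenced, in 8 groups of 5 mice. The paper names the strain C57BL6/J for the WT mice only. WT mice were purchased C57BL6/J animals, and KO mice lacked PPARγ in the liver through PPARγ-loxP alleles and a Cre driven by the albumin promoter, which is active in hepatocytes and leaves other liver cells with the gene. Each genotype received control diet, control diet with Pio, a high fat diet (HFD) or HFD with Pio (HFD-Pio), and no Cre-negative loxP littermates are among the samples. The comparisons within a genotype ask what Pio does on each diet and what HFD does with and without Pio. Total counts per mouse ran from 15788242 to 49857017 in WT (median 23083120) and from 21542958 to 28334251 in KO (median 24703923). The median total of the WT mice was 27682270 on control diet, 25319366 with Pio, 18060153 with HFD and 23274409 with HFD-Pio. For the KO mice the same medians were 24741224, 24759887, 23402279 and 25156615. Each genotype has its own count table, so a difference in level between WT and KO mice cannot be told apart from a difference between the tables and was not tested. Only the effects of Pio and HFD were compared between genotypes.

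Levels are given as TMM-normalised CPM (read counts scaled to a common library total). All 6 members were among the 12942 genes tested, which had at least 1 CPM in at least 5 mice. A gene is called higher or lower where the edgeR quasi-likelihood test gave a p, adjusted over those 12942 genes, of at most 0.05. Fold changes are log2 values with a standard error (SE). That SE was computed as the absolute log2 fold change divided by the square root of the F statistic of the edgeR test. The exact permutation tests of single genes are two-sided tests of 5 against 5 mice that cannot give a p below 0.00794.

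The liver label was checked first. Alb had the highest mean of the 8 hepatocyte markers, at 72427 CPM over the 40 mice, and all 8 had a mean of at least 1 CPM. Of 6 kidney tubule markers, looked at because kidney also expresses Cyp4a genes, Slc12a1, Kap and Aqp2 were at 0 in every mouse, and the most abundant, Slc12a3, averaged 0.101 CPM. KO Pio mouse 13 stood apart. Its mean correlation with its group mates over all tested genes was 0.787, against 0.928 to 0.989 for each of the other 39 mice. The summed hepatocyte markers came to 34589.9 CPM in this mouse and to 126672, 133756, 109128 and 99308 CPM in KO Pio mice 11, 12, 14 and 15. Its summed male-biased liver genes stood at 355.7 CPM against 2252 to 4536 CPM in those mice. All 40 mice share the fit, and leaving out mouse 13 moved the number of all genes called also in comparisons without it. In WT mice it moved from 506 to 2007 for Pio on control diet, from 140 to 1501 for Pio on HFD, from 170 to 845 for HFD without Pio and from 158 to 1119 for HFD with Pio. In KO mice it moved from 1166 to 66, from 2 to 0, from 24 to 50 and from 642 to 12 in the same order. Without mouse 13 12895 genes were tested, and each count below of genes called without it comes from a fit with these totals. Member calls and medians that rest on this mouse are therefore given with and without it, and the part its state plays in them was not tested.

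Pparg itself was low in all groups. In WT control mice 831 to 835 it stood at 9.53, 10.4, 10.2, 5.79 and 7.08 CPM. In WT Pio mice 841 to 845 the values were 10.8, 12.5, 12.5, 11.9 and 14.2 CPM. All 5 Pio mice lay above all 5 control mice, and the log2 difference of 0.53 (SE 0.23) was not called (adjusted p 0.199, exact permutation p 0.00794). WT HFD mice averaged 11.3 ± 1.44 CPM and WT HFD-Pio mice 10.4 ± 1.92 CPM (SD, n = 5). In KO control mice 1 to 5 Pparg stood at 7.82, 6.43, 3.67, 8.97 and 9.90 CPM. In KO Pio mice 11 to 15 it stood at 3.01, 6.57, 4.72, 4.30 and 4.37 CPM. These KO groups overlapped, with a log2 difference of -0.68 (SE 0.23, adjusted p 0.0558), or -0.66 without mouse 13 (adjusted p 0.245). KO HFD mice averaged 6.29 ± 1.97 CPM and KO HFD-Pio mice 7.27 ± 1.79 CPM (SD, n = 5). The Pio effect on control diet was lower in KO than in WT mice by edgeR, with a log2 difference between the effects of -1.21 (SE 0.32, adjusted p 0.0219), and of -1.20 without mouse 13 (adjusted p 0.0250). Gene totals include exons outside the deletion and transcripts of cells other than hepatocytes, so they are no check of the deletion. In whole liver, fewer cells of a type and less RNA per cell cannot be told apart.

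The 6 members lie within 322.6 kb of chromosome 4 (GRCm38, annotation of GENCODE vM21), in the order Cyp4a12a, Cyp4a12b, Cyp4a14, Cyp4a10, Cyp4a31, Cyp4a32. Cyp4a14, from 115486200 to 115496142, is the only member on the minus strand. Cyp4a10 follows it on the plus strand from 115518264 to 115533649, and the starts of both genes face the 22121 bases between them. The interval also holds Cyp4a30b and 6 pseudogenes. Within the coding sequence, Cyp4a12a and Cyp4a12b were 98.5% identical, Cyp4a10 and Cyp4a32 97.2%, Cyp4a10 and Cyp4a31 96.6% and Cyp4a31 and Cyp4a32 96.0%. Cyp4a14 shared 75.7% to 76.8% of aligned coding bases with the others. The members thus fall into 3 sequence groups, shown by the first 60 coding bases, in which capitals mark each base that differs from Cyp4a10. Cyp4a14 differs from Cyp4a10 at 24 of these positions, Cyp4a31 at 3, Cyp4a32 at 1 and the Cyp4a12 genes at 15.
Cyp4a10: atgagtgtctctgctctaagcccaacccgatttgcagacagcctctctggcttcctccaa
Cyp4a32: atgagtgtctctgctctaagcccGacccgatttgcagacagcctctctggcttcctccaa
Cyp4a31: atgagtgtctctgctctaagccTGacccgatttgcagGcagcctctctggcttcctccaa
Cyp4a14: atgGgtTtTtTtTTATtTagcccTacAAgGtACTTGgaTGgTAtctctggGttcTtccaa
Cyp4a12a: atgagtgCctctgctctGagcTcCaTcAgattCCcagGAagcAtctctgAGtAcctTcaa
Cyp4a12b: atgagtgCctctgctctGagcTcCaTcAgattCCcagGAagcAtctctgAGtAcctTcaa

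The authors counted only reads that aligned to a single place, so stretches that paralogs share give no counts. Of all 50-base windows of the exons, 49.45% in Cyp4a12b, 48.88% in Cyp4a12a, 43.83% in Cyp4a32, 29.82% in Cyp4a10 and 20.55% in Cyp4a31 occurred exactly in another annotated gene. In Cyp4a14 the share was 0.24%. At 100 bases the shares were 36.24%, 35.82%, 18.15%, 12.16% and 7.33% for the first 5 genes in that order, and 0% for Cyp4a14. Read length is not given in the files, so the loss of reads was not computed. It lowers the printed level of 5 members more than that of Cyp4a14, while a comparison of groups within a gene has the same loss on both sides. RefSeq promoter sequences (GRCm38.p6) matched 1 of the 6 members, Cyp4a32, and no promoter is shown.

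Levels of different genes were compared per kb of exon, as mean CPM per kb ± SD over 5 mice, and neighbours in the order were taken to differ where their means lay farther apart than the sum of their SDs. In WT control mice Cyp4a14 was highest at 237.6 ± 93.0. It was followed by Cyp4a12a at 83.6 ± 35.6, Cyp4a10 at 65.2 ± 13.5, Cyp4a12b at 24.8 ± 11.7, Cyp4a31 at 6.89 ± 6.31 and Cyp4a32 at 6.33 ± 2.76. Cyp4a14 stood above Cyp4a12a, and Cyp4a10 above Cyp4a12b, by more than the spread, and the other neighbours did not differ beyond it. Exon lengths were not corrected for stretches shared with paralogs, which were 48.88% of 50-base windows in Cyp4a12a and 0.24% in Cyp4a14. The order in both genotypes is therefore one of counted reads and need not be that of the transcripts. In KO control mice Cyp4a10 (168.1 ± 121) and Cyp4a14 (166.2 ± 146) led the order. Cyp4a12a followed at 49.7 ± 18.6, Cyp4a12b at 31.1 ± 15.4, Cyp4a32 at 10.9 ± 2.80 and Cyp4a31 at 5.23 ± 3.34. Only Cyp4a12b and Cyp4a32 differed beyond their spread among these neighbours.

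**Figure D1:**
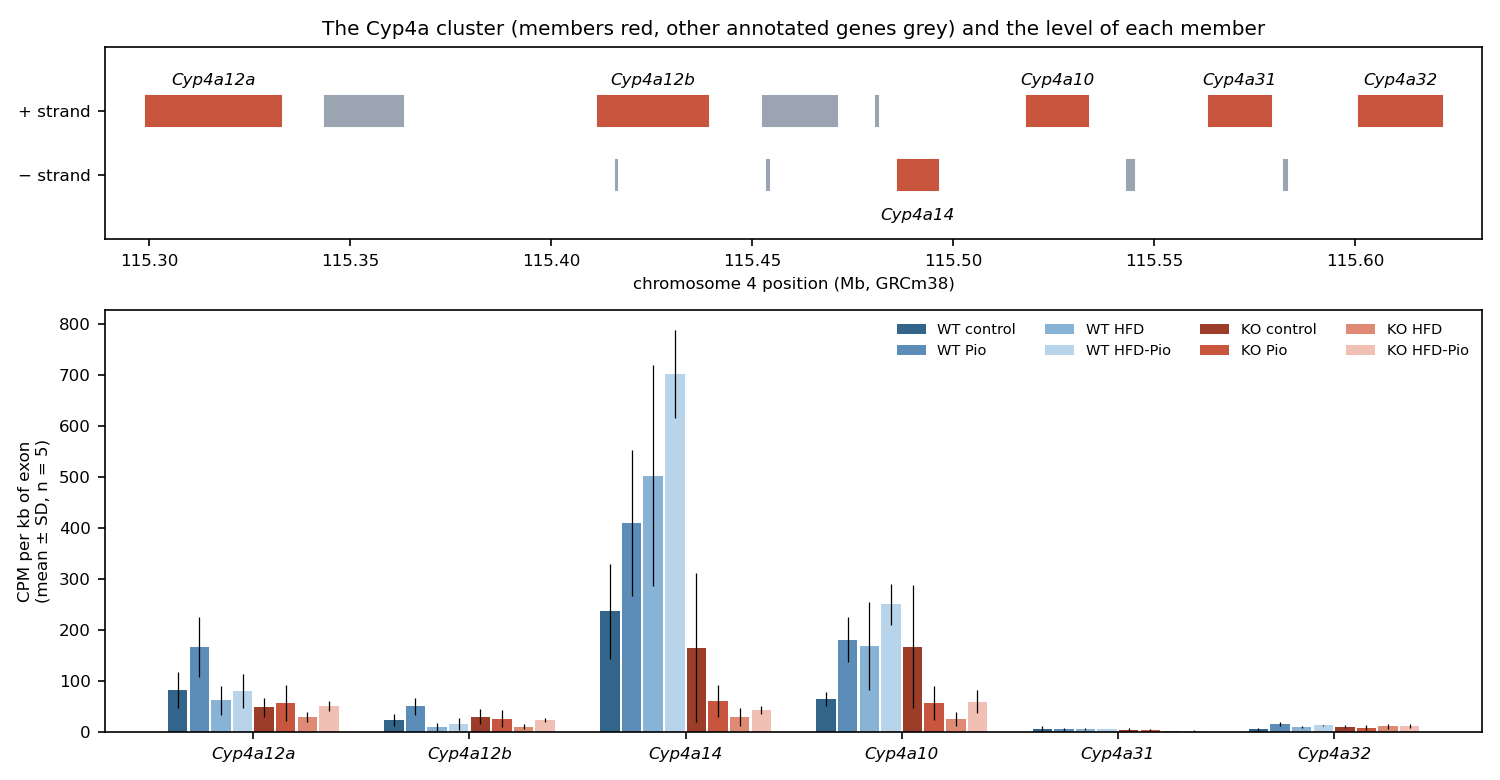
Top, positions of the 6 members (red) and of other annotated genes (grey) on both strands of chromosome 4 in Mb; bottom, mean CPM per kb of exon with SD for each member in the 8 groups of 5 mice. Cyp4a14 reached 702.7 CPM per kb in WT HFD-Pio mice, and Cyp4a31 and Cyp4a32 stayed at or below 16.0 CPM per kb in every group.

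Added over the 6 members, Cyp4a counts in WT mice came to 1045 ± 166 CPM for control, 2017 ± 458 for Pio, 1873 ± 660 for HFD and 2631 ± 284 for HFD-Pio (SD, n = 5). The KO groups had 1012 ± 619 CPM for control, 509.1 ± 243 for Pio, 255.2 ± 86.7 for HFD and 452.9 ± 97.5 for HFD-Pio. Sums in KO control mice 1 to 5 were 401.1, 314.6, 1380, 1703 and 1259 CPM, so mice 3, 4 and 5 stood far above mice 1 and 2. In WT mice Cyp4a14 made up a mean of 57.7% of the summed counts for control, 52.0% for Pio, 67.6% for HFD and 69.5% for HFD-Pio. In KO mice its share was 32.7% for control, 35.6% for Pio, 29.1% for HFD and 25.6% for HFD-Pio, and the Cyp4a14 share of counts is not corrected for gene length.

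Pio on control diet was compared with control diet alone in WT mice first. Cyp4a10 stood at 158.5, 152.2, 93.4, 159.3 and 124.4 CPM in WT control mice 831 to 835. In WT Pio mice 841 to 845 it stood at 338.1, 547.1, 351.3, 322.0 and 355.3 CPM. All 5 Pio mice lay above all 5 control mice, with mouse 842 the highest. The log2 fold change was 1.48 (SE 0.46) with an adjusted p of 0.0617, so edgeR did not call it, and the exact permutation p was 0.00794. Cyp4a10 was called by edgeR when any 1 of 5 mice outside this comparison was left out: WT HFD 829 (adjusted p 0.0496), KO control 1 (0.0474), KO control 2 (0.0412), KO HFD 9 (0.0339) and KO Pio 13 (0.0227), with a fold change of 1.48 or 1.49 each time.

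Cyp4a14, the member with the most counts in WT mice, stood at 1014, 519.2, 614.8, 581.4 and 360.6 CPM in WT control mice 831 to 835. WT Pio mice 841 to 845 had 877.8, 1657, 846.9, 742.7 and 1205 CPM. The groups overlapped because control mouse 831 was above 3 Pio mice, and the log2 fold change of 0.79 (SE 0.55) was not called (adjusted p 0.498, exact permutation p 0.0317). Cyp4a32, the closest relative of Cyp4a10 by sequence, had 7.26, 4.62, 9.00, 15.4 and 12.3 CPM in the WT control mice. In WT Pio mice it had 29.1, 20.9, 14.8, 27.3 and 30.7 CPM. Only Pio mouse 843 fell below a control mouse, and Cyp4a32 was called higher with a log2 fold change of 1.33 (SE 0.36, adjusted p 0.0260, exact permutation p 0.0159). The call was lost without WT control 831 (1.24, adjusted p 0.0684), 832 (1.16, adjusted p 0.0772) or 833 (1.31, adjusted p 0.0528), and without WT Pio 844 (1.29, adjusted p 0.0503) or 845 (1.24, adjusted p 0.0808). It was also lost by limma with sample quality weights (0.75, adjusted p 0.0522). Without KO Pio mouse 13 it was called at 1.34 (adjusted p 0.00160).

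Cyp4a12a had 76.5, 161.1, 215.9, 280.0 and 279.4 CPM in WT control mice 831 to 835 and 277.2, 291.3, 446.5, 382.8 and 628.7 CPM in WT Pio mice 841 to 845. Of the Pio mice, 4 lay above every control mouse, and the log2 fold change was 1.00 (SE 0.48, adjusted p 0.259, exact permutation p 0.0238). It was called only without KO Pio mouse 13 (1.01, adjusted p 0.0357). For Cyp4a12b the group means were 122.5 ± 40.8 CPM with Pio and 59.5 ± 28.1 CPM without (SD, n = 5), with a log2 fold change of 1.04 (SE 0.58, adjusted p 0.358). Cyp4a31 ranged from 10.0 to 25.4 CPM with Pio and from 6.98 to 45.4 CPM without, and its log2 fold change of -0.13 (SE 0.43) became 0.62 without WT control mouse 832 (adjusted p 0.468). In total, 1 of the 6 members was called higher and 0 lower by edgeR, where 2.44% of the genes tested were called higher and 1.47% lower. At an unadjusted p under 0.05 there were 3 members beside 2314 of the 12942 genes. DESeq2 called 2 members beside 813 genes, and limma with sample quality weights 0 beside 3095 genes. EdgeR without mouse 13 called 3 members, where 8.44% of all genes were called higher and 7.13% lower. The median log2 fold change was 1.02 over the members and -0.02 over all genes.

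On HFD, Pio was compared with HFD alone in WT mice. Cyp4a10 stood at 180.1, 281.4, 393.0, 652.5 and 273.1 CPM in WT HFD mice 826 to 830 and at 529.0, 563.3, 397.5, 634.2 and 521.4 CPM in WT HFD-Pio mice 836 to 840. HFD mouse 829 was the highest of all 10, and the log2 fold change was 0.57 (SE 0.45, adjusted p 0.576, exact permutation p 0.0794). Cyp4a14 had 470.8, 1206, 1683, 1951 and 1230 CPM with HFD and 1787, 1834, 1714, 2196 and 1608 CPM with HFD-Pio. The HFD-Pio mice lay within a narrower band than the HFD mice, and the log2 fold change was 0.48 (SE 0.55, adjusted p 0.720). Fold changes of the other 4 members lay from 0.10 for Cyp4a31 to 0.64 for Cyp4a12b. No member was called: edgeR gave 0 of 6 higher and 0 lower, beside 0.603% and 0.479% of all genes, with 0 at an unadjusted p under 0.05 and 0 by DESeq2 and by limma. The median over the members was 0.47, against -0.02 over all genes. The Pio effect on HFD was not shown to differ from that on control diet: the difference was -0.90 (SE 0.64) for Cyp4a10 and -0.30 (SE 0.78) for Cyp4a14. By edgeR 0 of 6 members were called for this difference, beside 0.0773% of all genes (10 genes, and 677 without mouse 13), with 0 at an unadjusted p under 0.05 and 0 by DESeq2 and limma.

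In KO mice on control diet, Cyp4a10 had 97.6, 75.3, 551.2, 627.4 and 421.6 CPM in control mice 1 to 5. It stood at 129.3, 60.4, 49.4, 220.4 and 145.6 CPM in Pio mice 11 to 15. Control mice 3, 4 and 5 lay above all Pio mice, and control mice 1 and 2 lay among them. Cyp4a10 was called lower with Pio (log2 fold change -1.55, SE 0.46, adjusted p 0.0346), while the exact permutation p on the same 10 mice was 0.135. The call was lost without KO Pio mouse 13 (-1.34, adjusted p 0.236) and without KO control 3 (-1.33, adjusted p 0.0875), 4 (-1.24, adjusted p 0.108) or 5 (-1.48, adjusted p 0.0609). It was also lost when the 20 KO mice were fitted without the WT mice (-1.54, adjusted p 0.162), with no filter on low counts (-1.52, adjusted p 0.0647) and by limma with sample quality weights (-0.48, adjusted p 0.557).

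Cyp4a14 split the same KO control mice, at 29.8 and 36.9 CPM in mice 1 and 2 and 736.5, 827.4 and 531.2 CPM in mice 3 to 5. KO Pio mice 11 to 15 had 71.3, 207.9, 76.2, 230.7 and 216.4 CPM. All Pio values lay between these sets of control mice, and the log2 fold change of -1.43 (SE 0.56, adjusted p 0.0920, exact permutation p 0.619) was not called. Without mouse 13 it was -1.23 (adjusted p 0.472), and limma gave the opposite sign, 0.26. Cyp4a31 also stood lower in KO control mice 1 and 2 (4.64 and 5.18 CPM) than in mice 3 to 5 (12.6, 21.0 and 22.3 CPM). Cyp4a12a did not follow this split, at 164.6, 117.1, 46.4, 127.9 and 145.6 CPM in KO control mice 1 to 5. The summed pericentral markers in these mice were 10890.0, 8890.4, 11182, 13078 and 7462 CPM, also not split between mice 1 and 2 and mice 3 to 5. What separates the KO control mice was not tested.

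KO Pio mouse 13 was lowest of its group for 5 members, with 4.39 CPM of Cyp4a12a, 2.34 of Cyp4a12b, 2.27 of Cyp4a32 and 1.56 of Cyp4a31 beside its Cyp4a10 value. The other KO Pio mice had 111.6 to 197.8 CPM of Cyp4a12a and 43.6 to 101.5 CPM of Cyp4a12b. Log2 fold changes with Pio were 0.22 for Cyp4a12a, -0.21 for Cyp4a12b, -0.28 for Cyp4a32 and -0.45 for Cyp4a31, and without mouse 13 they were 0.55, 0.12, 0.01 and -0.16. Of the 6 members, 1 was called lower and 0 higher, beside 1.26% of all genes lower and 7.75% higher, and without mouse 13 edgeR called 0 members and 66 genes in place of 1166. At an unadjusted p under 0.05 there were 2 members beside 3577 of the 12942 genes. DESeq2 called 1 member beside 1427 genes, and limma 0 beside 1216 genes. The median log2 fold change was -0.37 over the members (-0.0732 without mouse 13) and 0.03 over all genes.

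On HFD, KO mice with Pio were compared with KO mice without it. Cyp4a10 had 55.8, 72.8, 56.0, 11.2 and 83.8 CPM in KO HFD mice 6 to 10 and 77.2, 170.0, 79.2, 182.4 and 128.3 CPM in KO HFD-Pio mice 16 to 20. Of the HFD-Pio mice, 3 lay above every HFD mouse, and the log2 fold change of 1.19 (SE 0.46, adjusted p 1.00, exact permutation p 0.0238) was not called. Cyp4a12b had 26.9, 28.0, 21.3, 10.1 and 43.1 CPM with HFD and 53.2, 57.6, 47.6, 74.0 and 57.1 CPM with HFD-Pio. These groups did not overlap, and the log2 fold change of 1.16 (SE 0.59, adjusted p 1.00, exact permutation p 0.00794) was not called. By edgeR 0 members were called higher and 0 lower, beside 0% and 0.0155% of all genes, with 1 member and 134 of all genes at an unadjusted p under 0.05 and 0 members by DESeq2 and by limma. All 6 fold changes were above 0, with a median of 0.69 against 0.00 over all genes. In KO mice the Pio effect on HFD minus that on control diet was 2.74 (SE 0.65, unadjusted p 0.000161, adjusted p 0.339) for Cyp4a10 and 1.98 (SE 0.79, adjusted p 0.360) for Cyp4a14, and by limma it was 1.45 and 0.11 (adjusted p 0.232 and 0.978). EdgeR called 0 members and 0% of all genes for it, with 2 members and 1562 of all genes at an unadjusted p under 0.05 and 0 by DESeq2 and limma.

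The Pio effects were then compared between genotypes as the KO effect minus the WT effect, which cancels a constant difference between the tables. On control diet this difference was -3.03 (SE 0.65, adjusted p 0.00600) for Cyp4a10, and -2.82 without mouse 13 (adjusted p 0.0101). It remained called whichever of the 40 mice was left out, between -3.36 and -2.72, and it was -1.86 and not called by limma (adjusted p 0.0649). For Cyp4a32 the difference was -1.62 (SE 0.50, adjusted p 0.0405), or -1.33 without mouse 13 (adjusted p 0.0456). That call was lost without WT control 831 (-1.52), 832 (-1.45) or 833 (-1.59), WT Pio 841 (-1.55), 844 (-1.57) or 845 (-1.52), or KO control 2 (-1.59), 4 (-1.49) or 5 (-1.58), with adjusted p values of 0.0509 to 0.0752. It was also lost with no filter (-1.61, adjusted p 0.0723) and by limma, where the difference was smaller (-0.66, adjusted p 0.239). For Cyp4a14 the difference of -2.22 (SE 0.79, adjusted p 0.0696) was not called, but it was called by DESeq2 (-2.23, adjusted p 0.0468) and without KO control 1 (-2.52, adjusted p 0.0345), KO control 2 (-2.51, adjusted p 0.0333) or KO Pio 14 (-2.38, adjusted p 0.0462). Limma gave a far smaller difference for Cyp4a14 (-0.47, adjusted p 0.818), and without mouse 13 it was -2.03 (adjusted p 0.145). In all, edgeR called 2 of 6 members, beside 7.87% of all genes. With no filter 1 member was called beside 565 genes, by DESeq2 3 beside 1392 genes and by limma 0 beside 1998 genes. By edgeR the median was -1.43 over the members (-1.13 without mouse 13, with 745 genes called in place of 1018) and 0.06 over all genes. On HFD the difference was 0.62 (SE 0.64) for Cyp4a10 and 0.07 (SE 0.78) for Cyp4a14, or 0.0108 and -0.46 by limma, and edgeR called 0 of 6 members beside 0.0927% of all genes (12 genes, and 21 without mouse 13), with 0 at an unadjusted p under 0.05 and 0 by DESeq2 and limma.

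The comparisons of HFD with control diet share their control or Pio mice with those above, so the same values enter again. In WT mice without Pio, the HFD values of Cyp4a10, from 180.1 to 652.5 CPM, all lay above the control values of 93.4 to 159.3 CPM. The log2 fold change was 1.37 (SE 0.46, adjusted p 0.130, exact permutation p 0.00794) and was called only when the 20 WT mice were fitted alone (1.35, adjusted p 0.00669). For Cyp4a14, 4 of 5 HFD mice lay above every control mouse, with a log2 fold change of 1.08 (SE 0.56, adjusted p 0.4004, exact permutation p 0.0714). Fold changes of the other members were 0.67 for Cyp4a32, -0.14 for Cyp4a31, -0.42 for Cyp4a12a and -1.23 for Cyp4a12b, and that of Cyp4a31 became 0.62 without WT control mouse 832. By edgeR 0 members were called higher and 0 lower, beside 0.595% and 0.719% of all genes, with 2 members and 1710 of all genes at an unadjusted p under 0.05 and 0 by DESeq2 and by limma. The median over the members was 0.27, against 0.00 over all genes.

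With Pio in both diets, WT HFD-Pio mice were compared with WT Pio mice. Cyp4a14 stood at 1608 CPM or above in HFD-Pio mice, and 4 of 5 lay above every Pio mouse, with a log2 fold change of 0.78 (SE 0.55, adjusted p 0.566, exact permutation p 0.0159). Cyp4a12a had 166.1, 237.3, 114.9, 152.9 and 313.5 CPM in HFD-Pio mice 836 to 840, of which only mouse 840 reached the Pio values of 277.2 to 628.7 CPM. Its log2 fold change was -1.04 (SE 0.48, adjusted p 0.305, exact permutation p 0.0238). Cyp4a12b had 26.4, 55.9, 12.9, 24.4 and 78.4 CPM with HFD-Pio and 107.2, 66.3, 114.5, 156.2 and 168.1 CPM with Pio. Only Pio mouse 842 fell below the highest HFD-Pio mouse, and the log2 fold change was -1.63 (SE 0.59, adjusted p 0.170, exact permutation p 0.0159). Both Cyp4a12 genes were called lower without KO Pio mouse 13 (Cyp4a12a -1.05, adjusted p 0.0452; Cyp4a12b -1.63, adjusted p 0.0386) and by limma (-1.25, adjusted p 0.00703; -2.11, adjusted p 0.000944). These fits called far more genes of all kinds, 5.16% lower and 3.52% higher without mouse 13, and 10.9% lower and 11.8% higher by limma. EdgeR on all mice called 0 members higher and 0 lower, beside 0.255% and 0.966% of all genes, with 2 members and 1837 of all genes at an unadjusted p under 0.05 and 0 by DESeq2. The members had fold changes on both sides of 0, with a median of -0.05 against -0.01 over all genes.

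In KO mice without Pio, HFD values of Cyp4a10, from 11.2 to 83.8 CPM, lay below those of all but control mouse 2 (75.3 CPM), and 4 of 5 HFD mice lay below every control mouse. Cyp4a10 was called lower, with a log2 fold change of -2.67 (SE 0.48, adjusted p 0.00889, exact permutation p 0.0159). The call was lost only without KO control mouse 4 (-2.36, adjusted p 0.0556) of all 40 mice, and when the KO mice were fitted alone (-2.66, adjusted p 0.321). Without mouse 13 it was -2.65 (adjusted p 0.00384), and limma called it at -1.70 (adjusted p 0.00855). Cyp4a14 had 90.4, 99.8, 130.3, 16.6 and 51.9 CPM in KO HFD mice 6 to 10, which is above control mice 1 and 2 in 4 mice and below control mice 3 to 5 in all. Its log2 fold change of -2.47 (SE 0.58, adjusted p 0.0683, exact permutation p 0.183) was called by DESeq2 (-2.47, adjusted p 0.00461) and without KO control 1 (-2.78, adjusted p 0.0253), KO control 2 (-2.77, adjusted p 0.0268) or KO Pio 13 (-2.47, adjusted p 0.0473). It was -0.60 by limma (adjusted p 0.624) and -2.47 with the KO mice fitted alone (adjusted p 0.746), not called in either. Cyp4a12b, at 10.1 to 43.1 CPM against 20.5 to 119.9 CPM, had a log2 fold change of -1.52 (SE 0.59, adjusted p 0.767, exact permutation p 0.0397), called by limma (-1.26, adjusted p 0.0332). Of the 6 members 1 was called lower and 0 higher by edgeR, beside 0.0232% of all genes lower and 0.162% higher. At an unadjusted p under 0.05 there were 4 members and 595 of all genes. DESeq2 called 2 members beside 53 genes. Limma called 2 members beside 542 genes, with 2.06% of all genes lower and 2.13% higher. By edgeR, Cyp4a10 was among 3 genes called lower with all mice and 14 without mouse 13. The median over the members was -1.28 against -0.01 over all genes.

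With Pio in both diets, KO HFD-Pio mice had 77.2 to 182.4 CPM of Cyp4a10 and KO Pio mice 49.4 to 220.4 CPM, so the first range lay inside the second. The log2 fold change was 0.07 (SE 0.45), or -0.13 without mouse 13. For Cyp4a14 it was -0.49 (SE 0.55). EdgeR called 0 members higher and 0 lower, beside 0.425% and 4.54% of all genes, with 0 at an unadjusted p under 0.05 and 0 by DESeq2 and limma. The number of all genes called was 12 without mouse 13 in place of 642. The median log2 fold change was -0.15 over the members (-0.47 without mouse 13) and -0.02 over all genes.

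The HFD effect without Pio differed between genotypes for Cyp4a10, by -4.04 (SE 0.66, adjusted p 0.00663; KO minus WT), and by -4.01 without mouse 13 (adjusted p 0.00330). It remained called whichever of the 40 mice was left out, between -4.30 and -3.70. The difference for Cyp4a14 was -3.56 (SE 0.80, adjusted p 0.0691), called by DESeq2 (adjusted p 0.00496) and without WT control 831 (-3.79, adjusted p 0.0421), KO control 1 (-3.86, adjusted p 0.0251), KO control 2 (-3.85, adjusted p 0.0178), KO HFD 8 (-3.82, adjusted p 0.0424) or KO Pio 13 (-3.53, adjusted p 0.0307). By limma it was -1.59 and not called (adjusted p 0.514). EdgeR called 1 of 6 members, beside 0.0618% of all genes (8 genes, and 136 without mouse 13, which also adds Cyp4a14), with a median of -0.72 over the members. All 6 differences were below 0 by edgeR, but by limma those of Cyp4a12a (0.0673) and Cyp4a12b (0.28) were above 0. With Pio in both diets the differences were -0.39 (SE 0.64) for Cyp4a10 and -1.27 (SE 0.78) for Cyp4a14, and edgeR called 0 of 6 beside 0.0155% of all genes (2 genes, and 1 without mouse 13), with 0 at an unadjusted p under 0.05 and 0 by DESeq2 and limma. The difference between genotypes on control diet and that without Pio share the same KO control and WT control mice, and in KO mice these control values split as described.

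**Figure D2:**
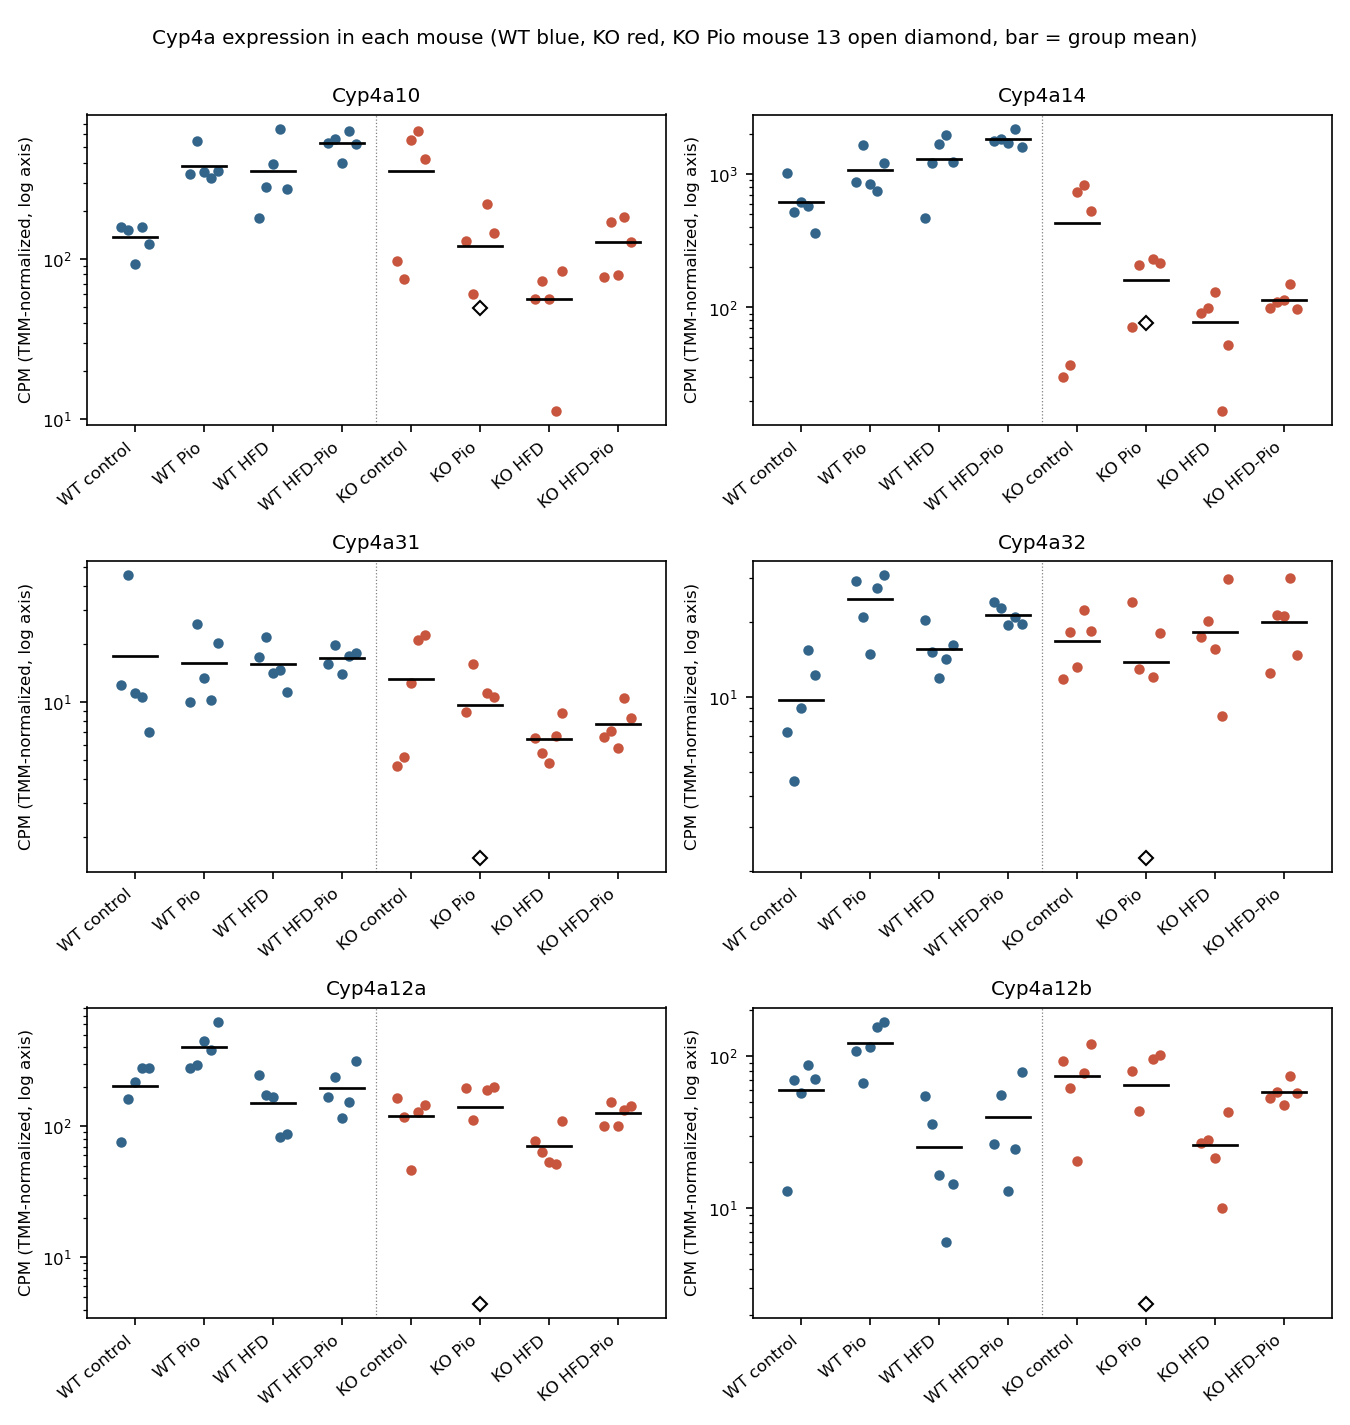
CPM of each member in each mouse on a log axis, WT in blue and KO in red, with group means as bars and KO Pio mouse 13 as an open diamond. Cyp4a10 is between 322.0 and 547.1 CPM in WT Pio mice against 93.4 to 159.3 CPM in WT control mice, and KO control mice form a low pair near 75.3 and 97.6 CPM and a high set of 421.6 to 627.4 CPM.

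Across the groups of a genotype, Cyp4a10 means in WT mice fell in the order HFD-Pio (529.1 ± 86.03 CPM), Pio (382.8 ± 92.8), HFD (356.0 ± 182) and control (137.6 ± 28.5), and only HFD and control lay farther apart than the sum of their SDs. In KO mice the order was control (354.6 ± 256 CPM), HFD-Pio (127.4 ± 49.2), Pio (121.0 ± 69.6) and HFD (55.9 ± 27.7), with no neighbours beyond that spread. WT means of Cyp4a14 were ordered HFD-Pio (1828 ± 223 CPM), HFD (1308 ± 564), Pio (1066 ± 373) and control (618.0 ± 242), and KO means control (432.4 ± 380 CPM), Pio (160.5 ± 79.6), HFD-Pio (114.0 ± 21.1) and HFD (77.8 ± 44.2), again with no neighbours beyond it. Cyp4a12a was highest with Pio in WT (405.3 ± 143 CPM) and in KO mice (139.8 ± 83.8) and lowest with HFD (151.8 ± 69.1 and 70.9 ± 23.7). Cyp4a12b was lowest with HFD in both, at 25.4 ± 19.5 and 25.9 ± 12.0 CPM, and in KO mice HFD-Pio (57.9 ± 9.86 CPM) stood above HFD beyond the spread. Cyp4a32 ran from 9.72 ± 4.24 CPM in control to 24.6 ± 6.60 in Pio among WT groups, where HFD-Pio (21.3 ± 1.99) and HFD (15.5 ± 3.08) differed beyond it, and from 13.8 ± 8.01 in Pio to 19.9 ± 6.86 in HFD-Pio among KO groups. Cyp4a31 means lay between 15.7 and 17.3 CPM in WT and between 6.44 and 13.1 CPM in KO groups. Without mouse 13, the KO Pio means were 138.9 CPM for Cyp4a10, 181.6 for Cyp4a14, 173.6 for Cyp4a12a, 79.9 for Cyp4a12b, 16.7 for Cyp4a32 and 11.6 for Cyp4a31, which puts Cyp4a10 in Pio above HFD-Pio and Cyp4a12b in Pio above control.

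**Figure D3:**
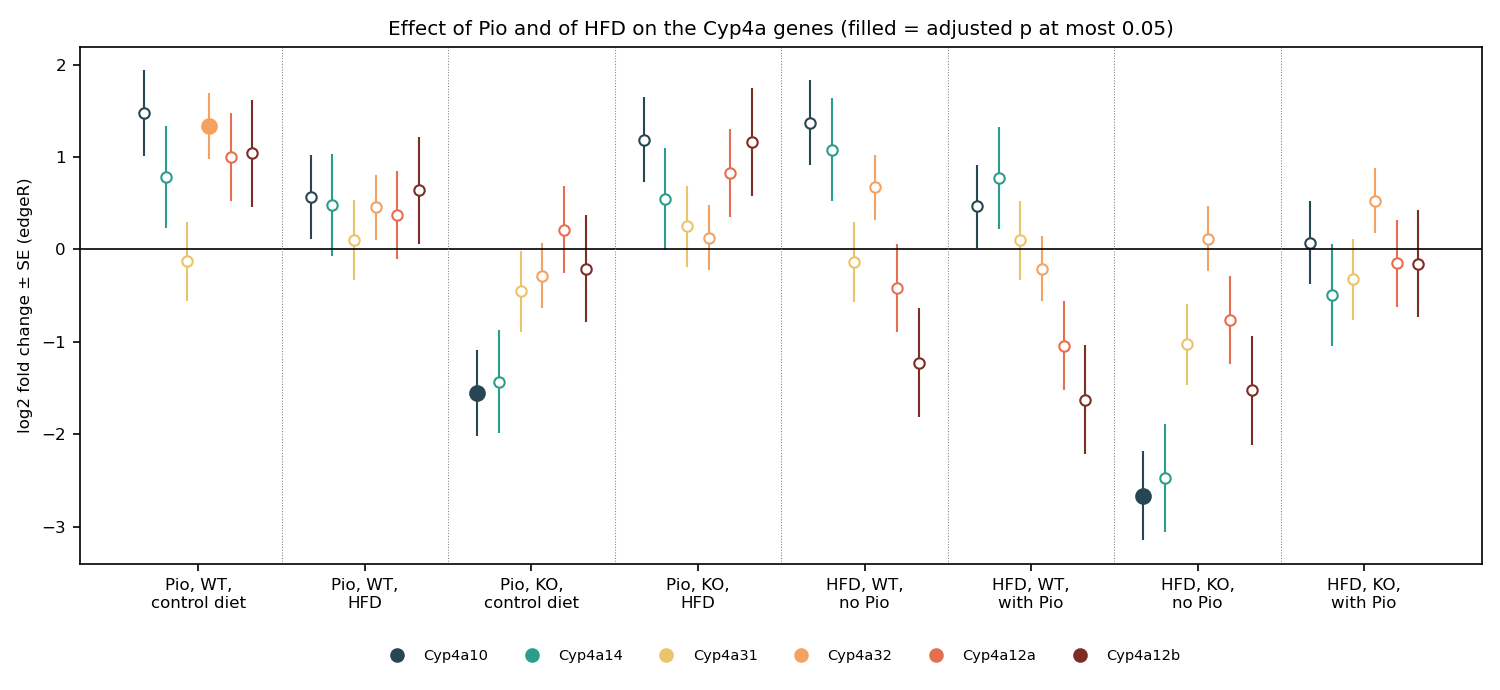
Log2 fold change with SE of each member in the 8 comparisons of 2 groups, filled where edgeR gave an adjusted p of at most 0.05. The filled points are Cyp4a32 in Pio-fed WT mice on control diet (1.33) and Cyp4a10 in KO mice with Pio on control diet (-1.55, not called without mouse 13) and with HFD without Pio (-2.67).

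Over the 40 mice, with each log2 CPM centred on its genotype mean, the members closest in sequence were not always closest in expression. Pearson r was 0.923 for Cyp4a12a and Cyp4a12b (Spearman rho 0.914), whose reads are told apart at few positions, and 0.838 for Cyp4a10 and Cyp4a14 (rho 0.782). It was 0.449 for Cyp4a10 and Cyp4a32, 0.515 for Cyp4a10 and Cyp4a31, 0.253 for Cyp4a10 and Cyp4a12a and 0.00963 for Cyp4a14 and Cyp4a12a. For Cyp4a32 and Cyp4a12a r was 0.658, and 0.401 without mouse 13. The mice share groups and libraries, so these values are descriptions. By the same measure, the 5 genes outside the family most like Cyp4a10 were Fmo1 (r 0.756), Aifm2 (0.735), Gstt2 (0.735), Ehhadh (0.733) and Slc16a7 (0.701). For Cyp4a14 they were Abcd2 (r 0.643), Aifm2 (0.636), Cyp2c38 (0.636), Cyp2a22 (0.618) and Crat (0.600). For Cyp4a12a they were Pnpla7 (r 0.861), Arhgap12 (0.861), Stag2 (0.849), Dnm1l (0.848) and Cnot6l (0.847), and without mouse 13 their r values lay between 0.660 and 0.698.

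Other genes of the pathway were looked at as lists, by how many were called of those tested. At an unadjusted p under 0.05 there were 2314, 2020, 1710 and 1837 of all 12942 genes in WT mice for Pio on control diet, Pio on HFD, HFD without Pio and HFD with Pio, and 3577, 134, 595 and 3106 in KO mice. Among 14 other Cyp4 genes, 7 were tested, and 1 was called in 1 of the 8 comparisons. Cyp4f17 was higher with Pio in KO mice on control diet (0.47, adjusted p 0.0326), beside 7.75% of all genes. This call was lost without mouse 13 (0.39, adjusted p 0.178). In the other 7 comparisons edgeR called 0, with 7 higher and 2 lower at an unadjusted p under 0.05 added over these comparisons, 1 by DESeq2 and 5 by limma. Without mouse 13 edgeR called 2 higher with Pio in WT mice on HFD, beside 5.196% of all genes. It also called 1 higher with HFD and Pio in WT mice, beside 3.52% of all genes. The 4 genes that pass electrons to P450 enzymes (Por, Cyb5a, Cyb5b and Cyb5r3) were all tested. Cyb5r3 was lower in WT HFD-Pio than in WT Pio mice, at 923.3 ± 208 against 2195 ± 1002 CPM (SD, n = 5). Its log2 fold change was -1.25 (SE 0.26, adjusted p 0.00914), beside 0.966% of all genes called lower. In the other 7 comparisons edgeR called 0, with 5 at an unadjusted p under 0.05, 1 by DESeq2 and 2 by limma. Without mouse 13 edgeR called 2 higher with Pio in WT mice fed control diet, beside 8.44% of all genes.

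Of 18 genes that act after the hydroxylation (alcohol and aldehyde dehydrogenases, acyl-CoA synthesis and peroxisomal oxidation of dicarboxylic acids), 17 were tested. With Pio in WT mice, 2 of the 17 were called on each diet, all higher, beside 2.44% of all genes higher on control diet and 0.603% on HFD. Among them was Acaa1b, a peroxisomal thiolase, on control diet (1.60) and on HFD (1.48), with list medians of 0.61 and 0.33. With HFD in WT mice, Acsl1 was higher without Pio (1.08, adjusted p 0.0134) and Crot with Pio (1.05, adjusted p 0.0229). Of all genes 0.595% and 0.255% were higher in these comparisons, and the list medians were 0.60 and 0.44. Without mouse 13, edgeR called 9 higher for Pio on control diet, 7 higher and 1 lower for Pio on HFD, 7 higher for HFD without Pio and 3 higher for HFD with Pio in WT mice. Of all genes it called 8.44%, 5.196%, 3.23% and 3.52% higher in these comparisons, and 7.13%, 6.44%, 3.33% and 5.16% lower. In KO mice with Pio on control diet, 1 gene was higher, Acot3 (4.00), and 2 were lower, Adh7 (-1.05) and Adh4 (-0.90). Of all genes 7.75% were higher and 1.26% lower, and the list median was -0.26 (-0.21 without mouse 13). Acot3 rested on mouse 13 and was -0.21 without it (adjusted p 0.971), Adh4 was -0.62 (adjusted p 0.191) and Adh7 was -0.78 and called (adjusted p 0.0402). With HFD and Pio in KO mice, Acot3 (-4.79) and Acot4 (-1.87) were lower, beside 4.54% of all genes. Without mouse 13 Acot3 and Acot4 were -0.56 and 0.02 and not called. In the remaining 2 comparisons in KO mice edgeR called 0, with 1 at an unadjusted p under 0.05 and 0 by DESeq2 and limma, and medians of 0.07 for Pio on HFD and -0.10 for HFD without Pio.

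Of 28 other PPARα target genes, 27 were tested, and the list overlaps the list before, with Acaa1b, Acot3, Acot4 and Ehhadh among the shared genes. In Pio-fed WT mice on control diet 5 were higher and 1 lower, beside 2.44% and 1.47% of all genes, among them Vnn1 (1.81), Acaa1b as above, Pex11a (0.83), Cpt1a (0.60) and, lower, Fgf21 (-3.01, adjusted p 0.00101). On HFD 3 were higher, beside 0.603% of all genes, among them Vnn1 (1.34) and Acaa1b. Medians were 0.42 and 0.56, beside member medians of 1.02 and 0.47. HFD in WT mice raised 3 without Pio (0.595% of all genes), among them Pex11a (0.79) and Cpt1a (0.63), and 4 with Pio (0.255% of all genes), Slc22a5 (0.98), Angptl4 (0.94), Cpt2 (0.70) and Creb3l3 (0.66), with medians of 0.50 and 0.51. Without mouse 13 these counts in WT mice were 11 higher and 2 lower for Pio on control diet, 12 and 1 for Pio on HFD, 11 and 0 for HFD without Pio and 10 and 0 for HFD with Pio, beside the shares of all genes given for the list before. In KO mice with Pio on control diet 1 was higher, Acot3, and 1 lower, beside 7.75% of all genes higher and 1.26% lower. Neither was called without mouse 13. With HFD and Pio in KO mice, Acot3 and Acot4 were the 2 called, both lower as above, beside 4.54% of all genes lower. Medians in KO mice were -0.19 for Pio on control diet, 0.05 for Pio on HFD, -0.21 for HFD without Pio and 0.08 for HFD with Pio (-0.22, 0.0446, -0.20 and 0.0697 without mouse 13), and in the middle pair edgeR called 0, with 1 at an unadjusted p under 0.05 and 0 by DESeq2 and limma. The Pio effect on control diet was lower in KO than in WT mice for 8 of these genes and higher for 1, beside 2.49% of all genes lower and 5.38% higher, with a median difference of -0.64 beside -1.43 for the members (-0.68 and -1.13 without mouse 13). Without mouse 13 it was lower for 9 and higher for 1, beside 3.15% and 2.63% of all genes. In that fit the HFD effect without Pio was lower in KO mice for 5, beside 0.427% of all genes. Ppara itself averaged 71.2 CPM on control diet, 117.7 with Pio, 106.0 with HFD and 164.8 with HFD-Pio in WT mice, and 161.8, 144.3, 150.7 and 152.9 CPM in the KO groups in that order.

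Of 12 PPARγ target genes of steatotic liver, 9 were tested. Cidea and Mogat1 passed the filter only through the Pio-fed WT mice and are given as levels: Cidea stood at 48.2 to 252.6 CPM in WT Pio and at most 0.922 CPM in WT control mice, and Mogat1 at 2.75 to 5.27 and at most 1.58 CPM. The other 7 were all called higher in Pio-fed WT mice on control diet, where 2.44% of all genes were, led by Cfd (6.88), Fabp4 (3.27) and Cidec (2.56). For Cav1, Cd36, Cfd, Cidec, Fabp4 and Plin4 the authors had reported this rise from the same mice, and none in KO mice. The calls of these genes, also between genotypes, therefore repeat a known result and are no independent support. On HFD 4 of these 7 were higher, beside 0.603% of all genes: Cfd (4.67), Cidec (3.00), Cd36 (1.98) and Plin4 (1.48). With HFD in WT mice without Pio 1 was higher, Plin4 (1.10, adjusted p 0.0350), beside 0.595% of all genes. Without mouse 13 there were 2, beside 3.23% of all genes. In the other 5 comparisons, including all 4 in KO mice, edgeR called 0. At an unadjusted p under 0.05 there were 1 higher and 6 lower, with 1 by DESeq2 and 3 by limma. These counts cover all 9 tested genes, Cidea and Mogat1 included, so they are no test of the 7 alone. Without mouse 13 edgeR called 2 of all 9 lower with HFD and Pio in WT mice, beside 5.16% of all genes. This count too includes Cidea and Mogat1 and is no test of the 7. On control diet the Pio effect was lower in KO than in WT mice for 6 of the 7, beside 2.49% of all genes (5 without mouse 13, beside 3.15%). On HFD it was lower for 2, Cfd (-7.82) and Cidec (-2.81), beside 0.0927% of all genes.

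Male-biased and female-biased liver genes were looked at because Cyp4a12a is sex-biased. Of 9 male-biased genes, Selenbp2 alone was called, higher in KO HFD-Pio than in KO Pio mice (2.91, adjusted p 0.0410). Of all genes 0.425% were called higher there, and without mouse 13 Selenbp2 was 2.62 and not called. In the other 7 comparisons edgeR called 0, with 5 higher and 1 lower at an unadjusted p under 0.05, 0 by DESeq2 and 5 by limma. Of 13 female-biased genes 5 were tested. In KO mice with Pio on control diet Cyp2a4 (3.70) was higher and Cyp2b9 (-4.38) lower, beside 7.75% of all genes higher and 1.26% lower. Of the 5 KO control mice 1 had 48.1 CPM of Cyp2b9, where the group median was 1.14 CPM, and the exact permutation p was 0.0714. In KO HFD-Pio against KO Pio mice, Cyp2a4 (-5.38) was lower, beside 4.54% of all genes. Cux2 passed the filter only with mouse 13 and is given no test. It averaged 85.0 ± 187 CPM in KO Pio mice (SD, n = 5). In KO control and KO HFD-Pio mice it averaged 0.729 ± 0.304 and 0.761 ± 0.249 CPM. Without mouse 13 Cyp2a4 (3.34 and -5.02, adjusted p 0.2499 and 0.213) and Cyp2b9 (-5.94, adjusted p 0.130) kept large fold changes but were not called. At the same time 1 female-biased gene was called higher with Pio in WT mice fed control diet, beside 8.44% of all genes. With all mice edgeR called female-biased genes in 4 comparisons, of which only Pio on control diet and HFD with Pio in KO mice are described here. In the 4 comparisons where it called 0, 4 passed an unadjusted p under 0.05, and DESeq2 called 2 and limma 5. These counts cover all 5 tested genes, Hao2 and Cux2 included. The summed female-biased genes of mouse 13 stood at 462.3 CPM against 45.997 to 134.7 CPM in its group mates, and Cux2 alone made up 420.1 CPM of that sum. Hao2 reached 1 CPM only in WT HFD and WT HFD-Pio mice, passed the filter through them and is given no test.

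Marker lists were read beside these results. Of 10 pericentral hepatocyte markers 9 were tested. Oat was higher in Pio-fed WT mice on control diet (1.37) and on HFD (1.19), beside 2.44% and 0.603% of all genes. With Pio in KO mice on control diet Cyp2e1 (-1.29), Oat (-1.08), Slc1a2 (-0.87) and Gulo (-0.57) were lower, beside 1.26% of all genes. The same 4 were higher in KO HFD-Pio than in KO Pio mice (1.18, 1.28, 0.98 and 0.71), beside 0.425% of all genes. Without mouse 13 all 8 kept their direction and were not called, at -1.03, -0.87, -0.65 and -0.42 for Pio and 0.94, 1.09, 0.78 and 0.58 for HFD with Pio, with adjusted p values of 0.154 to 0.469. EdgeR then called 2 pericentral markers higher with Pio on control diet and 1 higher with HFD without Pio in WT mice, beside 8.44% and 3.23% of all genes. The summed pericentral markers were 6781, 2318, 1733, 7750 and 7089 CPM in KO Pio mice 11 to 15, so mouse 12 was low as well, and their part in the Cyp4a values was not tested. Sds of the 8 periportal markers (1.17) was higher with Pio in KO mice on control diet. So were Hba-a2 (1.59) and Hba-a1 (1.48) of the 5 blood markers, beside 7.75% of all genes. Apob of the 8 hepatocyte markers was lower (-0.70), beside 1.26% of all genes. Without mouse 13 Sds, Hba-a2, Hba-a1 and Apob were 0.67, 0.97, 0.90 and -0.46 and not called (adjusted p values of 0.182 to 0.518). In the other 7 comparisons edgeR called 0 periportal and 0 hepatocyte markers, with 8 and 7 at an unadjusted p under 0.05, 2 and 3 by DESeq2, 9 and 7 by limma and 5 of each by edgeR without mouse 13. Alas2, another blood marker, was lower in Pio-fed WT mice on control diet (-0.87), beside 1.47% of all genes. Of 5 adipocyte markers, Adipoq, Plin1 and Lep did not pass the filter. Retn passed it only through the Pio-fed WT mice, at 2.33 to 4.76 CPM in WT Pio and at most 0.0604 CPM in WT control mice, and is given no test. Cfd was higher in Pio-fed WT mice on both diets as above. EdgeR called 0 of 7 macrophage, 6 endothelial, 6 stellate and 5 cholangiocyte markers in all 8 comparisons. Added over the comparisons, 2, 0, 7 and 4 of them passed an unadjusted p under 0.05, and DESeq2 called 0, 0, 1 and 1 and limma 0, 0, 4 and 0. Without mouse 13, edgeR called 1 stellate marker higher with Pio in WT mice fed control diet, Cfd higher with HFD without Pio and 1 blood marker higher with HFD and Pio, all in WT mice. That fit called 8.44%, 3.23% and 3.52% of all genes higher in these comparisons. None of the 6 kidney tubule markers passed the filter.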

How the data were processed

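RNA sequencing of 40 livers was used. According to their processing notes, the authors selected poly-A RNA, aligned reads to GRCm38 with STAR 2.0.4b and ran featureCounts 1.4.5 on reads with 1 alignment and 1 gene. The deposited values are whole read counts per gene without normalization, in 1 table for each genotype. Repeated lines (598 in the KO and 574 in the WT table) were reduced to 1 per gene, the tables were joined by gene identifier, 96 genes found only in the WT table were left out, and 355 rRNA genes were removed. A gene was kept if 5 or more mice had at least 1 CPM, which left 12942 and removed 27297.

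EdgeR 4.0.16 in R 4.3.3 was used with TMM factors, robust dispersions and the robust quasi-likelihood fit, with 8 group means, and Benjamini-Hochberg adjustment within each comparison. The common dispersion was 0.0850, and the pipeline was tested on simulated data. Exact permutation tests compared mean log2 CPM with a prior count of 2. Alternatives were edgeR with relative log expression factors, DESeq2 1.42.0, limma 3.58.1 with sample quality weights (the method of the authors), no filter, 1 CPM in 10 or more mice, each genotype fitted alone, each mouse left out in turn, a prior count of 0.5 and Spearman correlation. Exon lengths, coordinates and coding sequences come from GENCODE vM21, aligned with Biopython 1.88 in Python 3.11.15. Members and gene lists were chosen with earlier results of these data known. The lists are other Cyp4 genes, P450 electron donors, omega oxidation, PPARα targets, PPARγ targets, male-biased and female-biased genes, and markers of pericentral and periportal hepatocytes, hepatocytes, macrophages, endothelial cells, stellate cells, cholangiocytes, adipocytes, blood and kidney tubule. All members and Pparg are named in the text, and of each list up to 4 called genes per comparison with the largest absolute fold change and a mean of at least 5 CPM, though not every gene this rule takes is named. No set test was run.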

Additional observations from a re-analysis of the deposited data

Results flagged for a closer look

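A value is given here where its mouse lay far from the other 4 of its group, by the gap to its nearest neighbour as a share of the group's range (above 0.71 for 5 mice), or where an effect differed between genotypes. Chance sets off the first rule in about 1 in 20 groups, and 2 of 56 sets of a gene and a group did so. Cyp4a10 stood at 547.1 CPM in WT Pio mouse 842 (gap share 0.852), and Cyp4a31 at 45.4 CPM in WT control mouse 832 (gap share 0.862). The mean correlation with group mates over all tested genes was 0.787 in KO Pio mouse 13, 0.936 in WT control mouse 832, 0.948 in KO HFD mouse 9 and 0.952 in WT HFD mouse 829, each the lowest of its group.

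Between genotypes (KO minus WT), the Pio effect on control diet differed by -3.03 for Cyp4a10 (adjusted p 0.00600), by -1.62 for Cyp4a32 (adjusted p 0.0405) and by -1.21 for Pparg (adjusted p 0.0219). The HFD effect without Pio differed by -4.04 for Cyp4a10 (adjusted p 0.00663). These are edgeR interaction tests on all 40 mice. All 4 use the KO control mice, of which 3 had far more Cyp4a10 than the other pair, and what separates these mice was not tested.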

How the results depend on the processing

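With DESeq2, Cyp4a10 was called for Pio on control diet in WT mice (1.49, adjusted p 0.0188), and Cyp4a14 for HFD without Pio in KO mice (-2.47, adjusted p 0.00461) and, KO minus WT, for the Pio effect on control diet (-2.23, adjusted p 0.0468) and the HFD effect without Pio (-3.56, adjusted p 0.00496). EdgeR on all mice did not call these 4. DESeq2 called 2 members for Pio on control diet in WT mice, 2 for HFD without Pio in KO mice and 2 for the HFD effect without Pio between genotypes.

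With each genotype fitted alone, Cyp4a10 was called in WT mice for Pio on control diet (1.47, adjusted p 0.00171) and for HFD without Pio (1.35, adjusted p 0.00669). In KO mice it was no longer called for Pio on control diet (-1.54, adjusted p 0.162) or HFD without Pio (-2.66, adjusted p 0.321). The members called came to 2 for Pio on control diet and 1 for HFD without Pio in WT mice, and to 0 for both in KO mice. With no filter, Cyp4a10 was not called for Pio on control diet in KO mice (-1.52, adjusted p 0.0647), which left 0 members, and 1 member was called for the Pio effect on control diet between genotypes.

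With limma, Cyp4a14 was smaller by more than 1.5 times for HFD without Pio in KO mice (-0.60, adjusted p 0.624) and between genotypes for Pio on control diet (-0.47, adjusted p 0.818) and HFD without Pio (-1.59, adjusted p 0.514). For the Pio effect on HFD minus control diet in KO mice limma gave 1.45 for Cyp4a10 and 0.11 for Cyp4a14, and for the Pio effect on HFD between genotypes 0.0108 for Cyp4a10. Cyp4a32 was not called for Pio on control diet in WT mice (0.75, adjusted p 0.0522) or between genotypes (-0.66, adjusted p 0.239). Cyp4a10 was not called for Pio on control diet in KO mice (-0.48, adjusted p 0.557) or for that effect between genotypes (-1.86, adjusted p 0.0649). The members called came to 0 for Pio on control diet in WT mice, 0 in KO mice and 0 between genotypes, to 2 for HFD with Pio in WT mice and to 2 for HFD without Pio in KO mice. Directions turned by limma were Cyp4a10 for HFD with Pio in KO mice (-0.25), Cyp4a14 for Pio on control diet in KO mice (0.26), for the Pio effect on HFD minus control diet in WT mice (0.0938) and for the Pio effect on HFD between genotypes (-0.46), Cyp4a12a (0.0673) and Cyp4a12b (0.28) for the HFD effect without Pio between genotypes, Cyp4a31 for the Pio effect on HFD minus control diet in WT mice (-0.17), and also Cyp4a31 for Pio on control diet in WT (0.39) and KO mice (0.29) and for HFD without Pio in WT mice (0.53), Cyp4a32 (0.0908) and Cyp4a12b (0.41) for Pio on control diet in KO mice, Acot4 for HFD with Pio in KO mice (0.0622) and Pparg for HFD without Pio in KO mice (0.003999). Limma also called Pparg for the HFD effect with Pio between genotypes (0.97, adjusted p 0.0267) and for the Pio effect on HFD minus control diet in WT mice (-0.94, adjusted p 0.0384).

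Over the alternatives without a mouse left out and the one without mouse 13, adjusted p for Cyp4a10 ran from 0.00171 to 0.131 for Pio on control diet in WT mice, from 0.0117 to 0.557 in KO mice and from 0.000204 to 0.0649 between genotypes. For HFD without Pio it ran from 0.00669 to 0.387 in WT mice. For Cyp4a14 it ran from 0.00461 to 0.746 for HFD without Pio in KO mice, and between genotypes from 0.0468 to 0.818 for Pio on control diet and from 0.00496 to 0.514 for HFD without Pio. For Cyp4a32 it ran from 0.00160 to 0.0522 for Pio on control diet in WT mice and from 0.0182 to 0.239 between genotypes.

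Without mouse 13 the direction turned for Cyp4a10 (-0.13) and Acot4 (0.0227) for HFD with Pio in KO mice, and for Cyp4a32 (0.0107), Cyp4a12b (0.12) and Acot3 (-0.21) for Pio on control diet in KO mice.

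With each of the mice left out, Cyp4a10 ran in WT mice from 1.31 to 1.53 for Pio on control diet, 0.40 to 0.91 for Pio on HFD, 1.03 to 1.54 for HFD without Pio and 0.39 to 0.63 for HFD with Pio. In KO mice it ran from -1.88 to -1.24, 0.93 to 1.38, -2.92 to -2.36 and -0.13 to 0.41 in that order. The Pio effect on HFD minus control diet ran from -1.07 to -0.57 in WT and 2.43 to 3.07 in KO mice. Between genotypes the Pio effect ran from -3.36 to -2.72 on control diet and 0.28 to 0.79 on HFD, and the HFD effect from -4.30 to -3.70 without and -0.59 to -0.06 with Pio. Cyp4a14 in the same orders ran from 0.58 to 1.03, 0.27 to 0.67, 0.89 to 1.31 and 0.67 to 0.99 in WT mice, from -1.73 to -1.06, 0.29 to 0.82, -2.78 to -2.10 and -0.69 to -0.33 in KO mice, from -0.53 to -0.08 and 1.61 to 2.28 for the diet difference, and from -2.52 to -1.84, -0.21 to 0.34, -3.86 to -3.18 and -1.49 to -1.10 between genotypes.

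With each of the mice left out, the number of members called by edgeR ran from 0 to 3 for Pio on control diet and 0 to 2 for HFD with Pio in WT mice, 0 to 1 for Pio on control diet and 0 to 2 for HFD without Pio in KO mice, and between genotypes 1 to 3 for Pio on control diet and 1 to 2 for HFD without Pio. Other directions between 2 groups that turned in these fits were those of Cyp4a31 for Pio on control diet (-0.38 to 0.62), HFD without Pio (-0.36 to 0.62) and HFD with Pio (-0.0312 to 0.33) in WT mice, and in KO mice Cyp4a32 for Pio on control diet (-0.57 to 0.0107), Pio on HFD (-0.0688 to 0.37) and HFD without Pio (-0.13 to 0.30), Cyp4a12a for HFD with Pio (-0.47 to 0.00855) and Cyp4a12b for Pio on control diet (-0.44 to 0.12) and HFD with Pio (-0.47 to 0.0719).

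The number of all genes called by edgeR, DESeq2 and limma was 506, 813 and 3095 for Pio on control diet, 140, 360 and 1087 for Pio on HFD, 170, 376 and 327 for HFD without Pio and 158, 380 and 2937 for HFD with Pio in WT mice, and 1166, 1427 and 1216, 2, 8 and 0, 24, 53 and 542, and 642, 1012 and 309 in KO mice. With each genotype fitted alone it was 936, 156, 345 and 203 in WT mice and 0 in all 4 comparisons of KO mice. With no filter it was 315, 70, 101 and 86 in WT mice, and in KO mice 818, 0, 15 and 81. For differences between effects, edgeR, DESeq2 and limma called 10, 135 and 1378 for Pio on HFD minus control diet in WT mice and 0, 0 and 52 in KO mice. Between genotypes they called 1018, 1392 and 1998 for Pio on control diet, 12, 26 and 354 for Pio on HFD, 8, 91 and 185 for HFD without Pio and 2, 108 and 975 for HFD with Pio. The cause of these differences was not tested.

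No paired analysis was possible because the groups share no replicate numbers. Each genotype came in its own count table, so genotype and any handling tied to it cannot be told apart. With 5 mice a group the smallest exact p is 0.00794. Depth limits what can be said of genes near 1 CPM, and reads shared by closely related members were not counted.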

Other observations

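Cyp4a28-ps, a pseudogene outside the interval of the 6 members on chromosome 4 (115138568 to 115156506), was too low for the test and was singled out after its values were seen. It had 5, 2, 3, 6 and 5 reads in WT Pio mice 841 to 845 and 5, 3, 4, 4 and 2 reads in WT HFD-Pio mice 836 to 840. WT HFD mice 826 to 830 had 1, 0, 1, 2 and 1 reads, and all 5 WT control and all 20 KO mice had 0. No fold is given because the counts are at or near 0.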
